A study of Drosophila melanogaster with 3 samples.

Results

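In Kc167 cells, a line of Drosophila melanogaster derived from embryos, 510 chromosomal sites carried a peak scoring at least 3100 for the BTB domain of Mod(mdg4). These sites carried no peak for its 2.2 isoform or for L(3)mbt. They were chosen from the list of BTB peaks by position and score. A site was taken when it lay on the left or right arm of chromosome 2 or 3 (2L, 2R, 3L, 3R) or on X, scored at least 3100 and shared no base with a peak of the other 2 lists. These are the 5 long arms. The 510 sites are called strong BTB-only sites here and made up 8.30% of the 6144 BTB peaks on the long arms, of 7621 in the whole BTB list. Both the score and the absence of overlap chose the sites, so neither is a result.

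The data are 3 lists of ChIP-seq peaks from Kc167 cells grown in serum-free medium, 1 library for each antibody. The antibodies were directed against Mod(mdg4)2.2, against the BTB domain common to all isoforms of Mod(mdg4), and against L(3)mbt. The control libraries came from an earlier study and were not analysed here. All sites come from 1 BTB library, so no value has a replicate check, no difference was tested between libraries, and peaks of 1 list are not replicates. For the main comparisons between classes the values by arm are given or summarised, the others are over all 5 arms, and intervals are 95% intervals that cover counting error only. The files hold no read counts, so the depth is unknown.

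Mod(mdg4) is a chromatin protein of Drosophila made in many isoforms, which share an N-terminal BTB domain that lets proteins bind each other and differ in their C-terminal ends. The C-terminal end of many isoforms carries a zinc finger of the FLYWCH type, and trans-splicing joins the common exons to the variable ones. The 2.2 isoform is the partner of the DNA-binding protein Su(Hw) at the gypsy insulator, an element that blocks an enhancer from acting on a promoter when it lies between them. L(3)mbt takes part in gene repression through its MBT repeats, a fold that binds methylated lysines, and its loss in the fly larva gives tumours of the brain. An antibody against the BTB domain detects every isoform, and therefore sites with BTB and without 2.2 are candidates for the other isoforms. The files cannot say which isoform occupies a site. Each list begins just above a score of 100, so a site with no 2.2 or L(3)mbt peak may still hold binding below that limit.

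The score is the peak caller's own value, given by the authors. It served here only to choose and describe peaks. Of the 510 sites, 495 scored exactly 3100 and 15 scored from 3104.73 to 3218.75. No source used here says how a value over 3100 ranks against 3100 itself, so all 510 are treated as tied. Among the 15, the first in genome order lay on 2L at 1491818 to 1492716 (score 3196.58), at 6252591 to 6253349 (3183.75) and at 14851544 to 14852016 (3184.58). They were followed on 2R by 11552261 to 11553079 (3163.99) and 12273665 to 12274319 (3186.14). These 5 sites were 473 to 899 bp wide. Just outside the choice were BTB peaks in neither other list at X 16229213 to 16229834 (score 3097.58), 3L 3543189 to 3543965 (3070.11) and 3L 21628299 to 21629095 (3066.88). The next lay at X 7838197 to 7839358 (3066.35) and 2R 5599550 to 5600610 (3064.45). Below the threshold there were 1693 BTB-only peaks on the long arms, with a median score of 282.87, and 12 of them scored from 3000 to under 3100. Few sites therefore lay just below the limit, while 623 of the 1693 scored under 200. No source used here names the genome build, and the DNA sequence and the genes at these positions were not analysed here.

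The strong BTB-only sites are set beside 3 other classes of BTB peak on the same arms. These are the 1693 weaker BTB-only peaks, the 663 strong peaks with 2.2 and without L(3)mbt, and the 496 strong peaks with L(3)mbt and without 2.2. Strong means a BTB score of at least 3100 in each case. Of all 1889 strong BTB peaks, 27.0% were BTB-only (25.04 to 29.05%), against 35.9% of the BTB peaks at any score. This share is part of the choice of the sites and is given as a description. By arm it was lowest on X (88 of 352 peaks) and highest on 2L (89 of 301 peaks, 29.6%).

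The strong BTB-only sites were spread over all 5 arms at 4.30 per Mb. There were 89, 112, 95, 126 and 88 on 2L, 2R, 3L, 3R and X in turn, the order used below for values by arm. Per Mb of arm this came to 3.90, 5.30, 3.88, 4.52 and 3.93 sites in the same order. 2R had the highest density, as it also had for the weaker BTB-only peaks (16.3 per Mb) and for the strong peaks with 2.2 (7.01 per Mb). The lengths are the highest peak end found on each arm in any list. The X chromosome held 17.3% of the sites (14.2 to 20.8%), 19.8% of the weaker BTB-only peaks (17.96 to 21.75%), 19.5% of the strong peaks with 2.2 (16.6 to 22.6%) and 17.9% of those with L(3)mbt (14.8 to 21.6%). These 4 intervals overlapped, so no class stood apart on X at these counts.

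**Figure D1:**
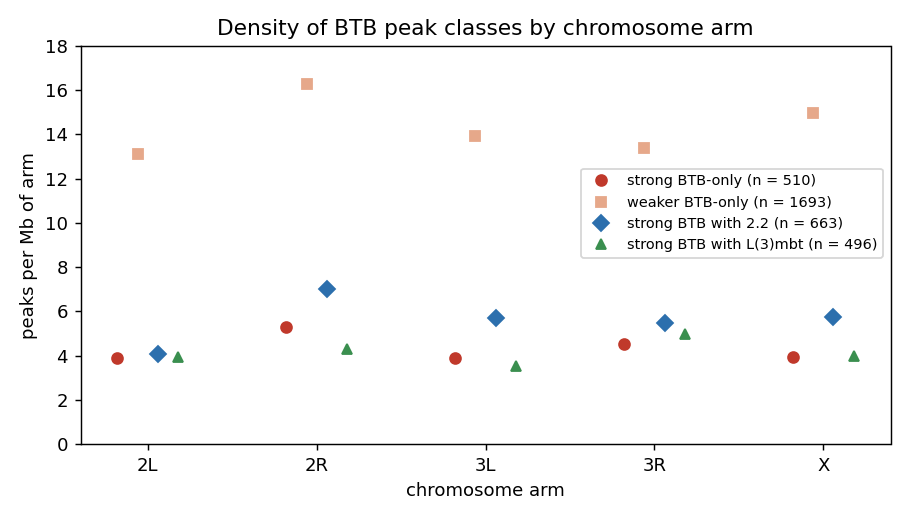
Peaks per Mb of each chromosome arm (y axis) for the 4 classes of BTB peak; each point is 1 class on 1 arm. Strong BTB-only sites lie between 3.88 and 5.30 per Mb, with 2R the highest.

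Along the arms the sites were found from end to end. Each arm was divided into 5 equal parts from the telomere to the centromere, with the centromere placed by the usual orientation of the fly map and not from the files. Together these parts held 110, 107, 96, 114 and 83 of the sites. The part next to the centromere thus held the fewest, 16.3% (13.3 to 19.7%), close to the 17.3% of all BTB peaks there (16.4 to 18.3%). The arms were not alike in this respect. On X, 31 of the 88 sites lay in the part next to the telomere (35.2%, 26.1 to 45.6%), against 16.7% of the weaker BTB-only peaks on X (13.1 to 21.1%), 27.1% of the strong peaks with 2.2 (20.2 to 35.4%) and 16.9% of those with L(3)mbt (10.5 to 26.0%). On 3R the opposite end was fuller, with 33 of 126 sites next to the centromere (26.2%, 19.3 to 34.5%), against 19.8% of all BTB peaks on 3R (17.9 to 21.9%) and 23.7% of the strong peaks with L(3)mbt (17.4 to 31.5%), and 16 next to the telomere (12.7%, 8.0 to 19.6%). These arms were singled out after the values were seen.

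Over 116 windows of 1 Mb, the number of sites ran from 0 to 12 with a median of 4, and 5 windows held none. The variance of the counts was 1.44 times their mean, against 1.96 for the weaker BTB-only peaks, 1.62 for the strong peaks with 2.2 and 1.91 for those with L(3)mbt. This ratio was thus the lowest of the 4 classes for the strong BTB-only sites, though their variance was still above their mean. The measure grows with the number of peaks per window, which is larger for the weaker class. The fullest windows were X from 2 to 3 Mb with 12 sites, 3L from 0 to 1 Mb with 11 and 2R from 4 to 5 Mb with 10. Across the windows the number of sites had a Pearson r of 0.28 (Spearman 0.22) with the weaker BTB-only peaks, 0.02 (0.04) with the strong peaks with 2.2 and 0.15 (0.07) with those with L(3)mbt. These are descriptions over 116 windows of 1 library.

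The peaks were of moderate width. Strong BTB-only peaks had a median of 837.5 bp (interval 804 to 899 bp), with an interquartile range of 678 to 1154.5 bp, and covered 491.7 kb in all. By arm the median was 850 bp, 894.5, 804, 820 and 906.5 from 2L to X. Strong peaks with 2.2 were narrower, with a median of 752 bp (734 to 776), and strong peaks with L(3)mbt were wider, with 991.5 bp (941 to 1050). From the strong peaks with 2.2 to the strong BTB-only peaks to those with L(3)mbt, the medians went up on each autosomal arm. On X the last 2 were level, at 906.5 and 907 bp. A wide peak meets a peak of another list by 1 bp more easily, so width is not independent of the choice. Weaker BTB-only peaks had a median of 558 bp (550 to 564), and since width and score come from the same reads this is no independent finding. Peaks of 1000 bp or more made up 36.1% of the strong BTB-only class (32.0 to 40.3%), 23.4% of the strong peaks with 2.2 (20.3 to 26.7%) and 49.8% of those with L(3)mbt (45.4 to 54.2%).

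**Figure D2:**
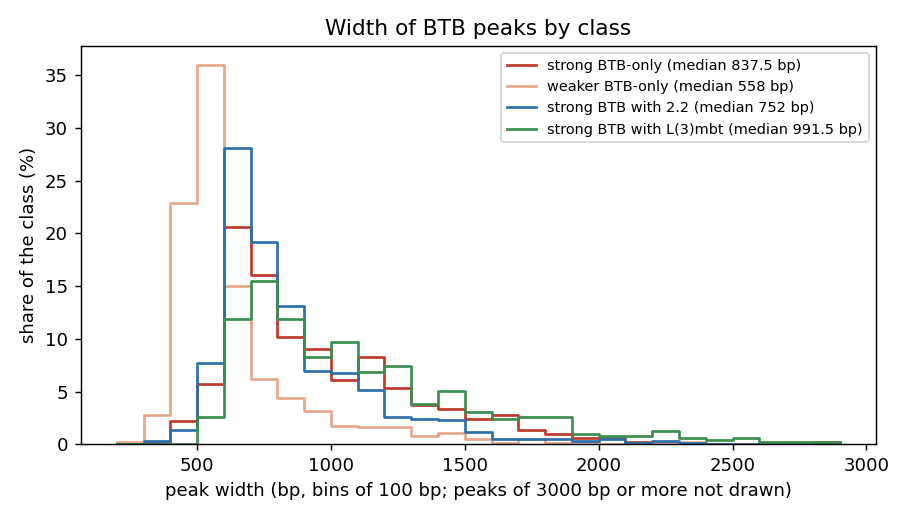
Width of BTB peaks in bins of 100 bp (x axis) as a share of each class (y axis), 1 line per class; peaks of 3000 bp or more are not drawn. The median of the strong BTB-only sites, 837.5 bp, lies between those of the strong peaks with 2.2 (752 bp) and with L(3)mbt (991.5 bp).

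The extremes of width show what the class holds. The widest site, on 2R at 15640219 to 15646878, spanned 6660 bp and lay 378 bp from the next BTB peak. It belongs to a run of 14 BTB peaks in a row, from 15616198 to 15653898, that were all in neither other list. It was the only one of the 14 that scored at least 3100. The next widest were 2813 bp on 3L (639104 to 641916) and 2209 bp on 3R (26291048 to 26293256). In all, 7 of the 510 reached 2000 bp. The narrowest were 323 bp on X (12245074 to 12245396), 422 bp on 3L (8645021 to 8645442) and 424 bp on 3L (10218348 to 10218771), so a peak need not be wide to score 3100.

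Mod(mdg4)2.2 peaks lay at a distance from most strong BTB-only sites. The gap from the edge of a site to the nearest 2.2 peak had a median of 25622 bp (interval 23565 to 29329 bp) and an interquartile range of 10204 to 53406 bp. With sites chosen by centres over 200 bp apart, which admits sites whose peaks overlap, this median was 17003 bp. For the weaker BTB-only peaks the median was 19836 bp (18817 to 21761), and for the strong peaks with L(3)mbt, which also lack 2.2, it was 22680 bp (20255 to 25720). By arm the medians of the strong BTB-only sites were 25044 bp, 22857, 27103, 31421 and 23179 from 2L to X. Those of the weaker BTB-only peaks were 26942, 19868, 18242, 18482 and 17856 bp in the same order. The gap was thus longer for the strong class on 4 arms and shorter on 2L. The interval of the strong class lay above that of the weaker class over all arms and overlapped that of the strong peaks with L(3)mbt. A 2.2 peak lay within 10 kb of 127 of the 510 sites (24.9%, 21.3 to 28.8%), against 28.0% of all 3950 BTB peaks without 2.2 and 30.5% of the weaker BTB-only peaks (28.3 to 32.7%). The strong class was below the weaker one on 4 arms and above it on 2R, at 33.9% and 29.1%. Within 1 kb these shares were 3.14% of the strong (1.94 to 5.03%) and 6.14% of the weaker class (5.10 to 7.39%).

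L(3)mbt peaks were closer. The gap to the nearest one had a median of 15376 bp (13252 to 18223) and an interquartile range of 4524 to 38350 bp. It was 6612 bp when sites were chosen by centres over 200 bp apart and 9184 bp with peaks set to 400 bp, settings that admit overlapping peaks. The long arms hold more L(3)mbt than 2.2 peaks, 2890 against 2195, and a longer list gives shorter gaps. The median was 13179 bp (11934 to 14504) for the weaker BTB-only peaks and 22316 bp (19429 to 24496) for the strong peaks with 2.2, which also lack L(3)mbt. By arm the median of the strong BTB-only sites was 24209 bp, 13583, 14908, 18468 and 11220 from 2L to X. For the strong peaks with 2.2 it was 27611, 19856, 24395, 21577 and 18502 bp. The strong BTB-only sites thus lay nearer to L(3)mbt than these peaks on each of the 5 arms, with intervals that overlapped on each. For the weaker BTB-only peaks it was 18833, 10592, 12452, 11816.5 and 14653 bp. These lay nearer to L(3)mbt than the strong BTB-only sites on each arm but X. L(3)mbt was found within 10 kb of 205 of the 510 sites (40.2%, 36.0 to 44.5%), against 35.2% of all 3961 BTB peaks without L(3)mbt, 43.7% of the weaker BTB-only peaks (41.3 to 46.0%) and 27.3% of the strong peaks with 2.2 (24.0 to 30.8%). For 319 sites the L(3)mbt peak was the nearer one (62.5%, 58.3 to 66.6%), much as for the weaker BTB-only peaks (58.8%, 56.4 to 61.1%).

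**Figure D3:**
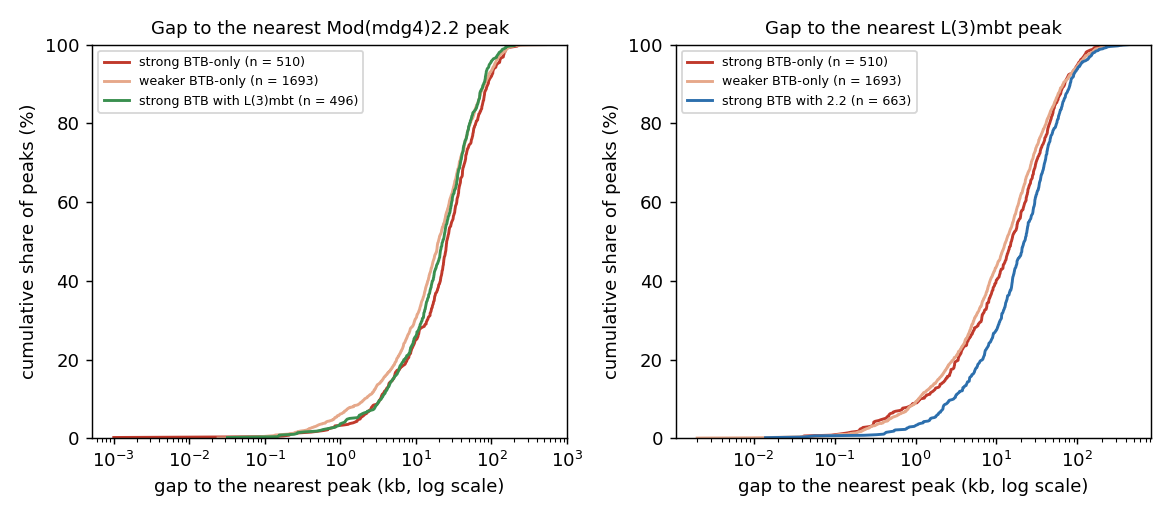
Cumulative share of peaks (y axis, percent) by the gap to the nearest Mod(mdg4)2.2 peak (left) and L(3)mbt peak (right; x axes in kb on a log scale), for classes that do not overlap the list in question. The median gap of the strong BTB-only sites is 25622 bp to 2.2 and 15376 bp to L(3)mbt, where the strong peaks with 2.2 stand at 22316 bp.

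Many strong BTB-only sites stood free of both proteins. By the overlap of 1 bp, neither a 2.2 nor an L(3)mbt peak lay within 10 kb of 243 of them (47.6%, 43.3 to 52.0%), against 42.23% of the weaker BTB-only peaks (39.9 to 44.6%), intervals that overlapped. The share was 26.7% when sites were chosen by centres over 200 bp apart, a setting that admits sites whose peaks overlap. By arm the first count held for 45 of 89 sites, 45 of 112, 48 of 95, 64 of 126 and 41 of 88 from 2L to X, and the share was above that of the weaker class on each arm. Both proteins lay within 10 kb of 65 sites (12.7%, 10.1 to 15.9%), against 16.4% of the weaker BTB-only peaks (14.7 to 18.2%). The most isolated site of the class, on 3R at 15151654 to 15152723, was 75539 bp from the nearest peak of any of the 3 lists, which was one of L(3)mbt. It was followed by 2L 21898991 to 21899972, 69515 bp from the nearest peak, and 2L 11358374 to 11359225, at 57619 bp. These peaks were 1070, 982 and 852 bp wide and all scored 3100.

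A small group lay at the border of the class. A 2.2 or L(3)mbt peak was within 500 bp of 38 sites (7.45%, 5.48 to 10.1%), much as for the weaker BTB-only peaks (7.68%, 6.50 to 9.04%). L(3)mbt accounted for 32 and 2.2 for 9 of them, 3 having both. Of the 32 L(3)mbt peaks, 31 overlapped another BTB peak (96.9%, 84.3 to 99.4%), against 66.3% of the whole L(3)mbt list on these arms (64.5 to 68.0%). Of the 9 peaks of 2.2, 8 did (88.9%, 56.5 to 98.0%), against 91.8% of all 2.2 peaks on these arms (90.5 to 92.8%). For L(3)mbt the share that overlapped another BTB peak was thus above that of the whole list, but these peaks were chosen for lying near a BTB peak. For 2.2, with only 9 peaks and 91.8% in the whole list, no excess could have shown. The 2 proteins are therefore not compared in this. Another BTB peak itself lay within 500 bp of 21 of the 38 (55.3%, 39.7 to 69.9%), and of 78 of all 510 sites (15.3%, 12.4 to 18.7%). For the weaker BTB-only peaks the like counts were 59 of 130 (45.4%, 37.1 to 54.0%) and 228 of 1693 (13.5%, 11.9 to 15.2%), with intervals that overlapped. The closest case, on 3R at 913445 to 914169, was 1 bp from a 2.2 peak and 42 bp from an L(3)mbt peak. That 2.2 peak (912189 to 913443) scored 155.37 and that L(3)mbt peak (911991 to 913402) scored 190.32, both near the foot of their lists. The site on 2R at 8929359 to 8930301 was 37 bp from an L(3)mbt peak scoring 529.73. A site on 3L at 3419388 to 3421015 was 40 bp from an L(3)mbt peak 11843 bp wide. The sites on 3R at 26291048 to 26293256 and on 2R at 6324465 to 6325049 were 116 and 176 bp from peaks of 2.2 scoring 377.41 and 194.78.

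The nearest 2.2 peak of a strong BTB-only site scored 3100 or more for 35.1% of the sites (31.1 to 39.3%), against 32.6% of all 2.2 peaks on the long arms (30.6 to 34.6%). It met a BTB peak for 91.8% of the sites (89.1 to 93.8%), against 91.8% of all 2.2 peaks (90.5 to 92.8%). The nearest L(3)mbt peak scored 500 or more for 32.4% (28.4 to 36.5%), against 33.3% of all L(3)mbt peaks on the arms (31.56 to 34.99%). It met a BTB peak for 73.3% of the sites (69.3 to 77.0%), above the 66.3% of the whole L(3)mbt list on the arms (64.5 to 68.0%) and close to the 75.7% of the weaker BTB-only peaks (73.6 to 77.6%) and the 74.1% of the strong peaks with 2.2 (70.6 to 77.2%).

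BTB peaks were crowded around the strong BTB-only sites, whereas 2.2 peaks were not. Peak centres were counted in the flanks on both sides of each site, from 2 kb outwards, and given per Mb of flank. At 2 to 5 kb there were 74.3 BTB centres per Mb, against a mean of 51.8 over the 5 arms. The value was 62.6 at 5 to 10 kb, 59.1 at 10 to 20 kb, 55.3 at 20 to 50 kb and 49.0 at 50 to 100 kb. At 2 to 5 kb it was above the arm's own mean on 2R, 3L, 3R and X, at 100.1, 71.9, 67.5 and 90.9, and below it on 2L, at 37.5 against 44.3. At 5 to 10, 10 to 20 and 20 to 50 kb it was above the own mean on each of the 5 arms. The strong peaks with 2.2 had 71.2 BTB centres per Mb at 2 to 5 kb and those with L(3)mbt had 83.7, so crowding of BTB peaks was common to the classes.

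For 2.2 the density around the strong BTB-only sites was 16.4 centres per Mb at 2 to 5 kb, 15.7 at 5 to 10 kb, 14.0 at 10 to 20 kb, 18.1 at 20 to 50 kb and 16.3 at 50 to 100 kb, against an arm mean of 18.5. At 10 to 20 kb, where 142 centres were counted, it was below the own mean on each of the 5 arms, from 12.6 to 15.7. It was also below on each of the 5 arms at 50 to 100 kb, from 13.8 to 17.9. At 5 to 10 kb and at 20 to 50 kb it was above on 2 arms and below on 3. At 2 to 5 kb, with 50 centres, it was below on 2L, 3L and 3R and above on 2R and X. Around the weaker BTB-only peaks there were 19.5 centres of 2.2 per Mb at 10 to 20 kb, and around the strong peaks with 2.2 there were 29.0. The strong peaks with L(3)mbt, which also lack 2.2, had 13.1 at 2 to 5 kb, 17.9 at 5 to 10 kb and 18.2 at 10 to 20 kb. A lack of crowding by 2.2 was thus not particular to the strong BTB-only sites. L(3)mbt stood at 31.7 centres per Mb at 2 to 5 kb and 24.9 at 5 to 10 kb around the strong BTB-only sites, against a mean of 24.4. Around the weaker BTB-only peaks it stood at 31.8 and 31.1. Around the strong peaks with 2.2 it stood at 16.6 and 19.8, and around those with L(3)mbt at 52.8 and 45.0. A 2.2 or L(3)mbt peak over the site itself was excluded by the choice, but its centre would mostly fall within the 2 kb left out.

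**Figure D4:**
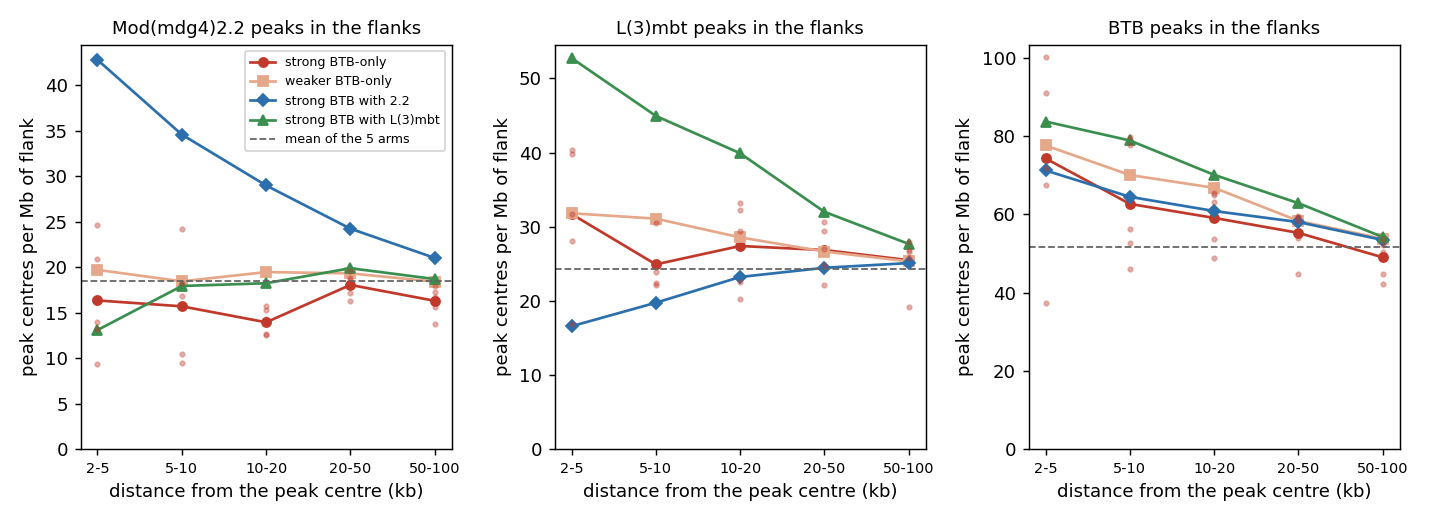
Peak centres per Mb of flank (y axis) of Mod(mdg4)2.2, L(3)mbt and BTB by distance from the peak centre (x axis, kb) for the 4 classes; the dashed line is the mean over the 5 arms and the small red dots are the strong BTB-only sites on each arm. Around strong BTB-only sites BTB goes from 74.3 to 49.0 per Mb, while 2.2 stays between 14.0 and 18.1.

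The extra BTB peaks near the strong BTB-only sites were largely BTB-only themselves. BTB-only peaks at any score stood at 36.96 per Mb at 2 to 5 kb, 28.7 at 5 to 10 kb and 26.3 at 10 to 20 kb, against a mean of 18.6. Strong BTB peaks that hold 2.2 or L(3)mbt stood at 12.76, 12.96 and 12.48 per Mb, against 11.6. At 2 to 5 kb the BTB-only density was above the own mean on 2R, 3L, 3R and X and at 16.9 against 17.0 on 2L. At 5 to 10 kb 2L was below its mean, at 13.5, and the other 4 arms above theirs. Around the strong peaks with 2.2 it was 17.6 per Mb at 2 to 5 kb, around those with L(3)mbt 30.9, and around the weaker BTB-only peaks 35.6. The last was close to the value of the strong sites.

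The same was seen in the single nearest BTB peak. It was BTB-only at any score for 260 of the 510 sites (51.0%, 46.7 to 55.3%), against 34.7% of all 6144 BTB peaks on the long arms. It held 2.2 for 117 sites (22.9%, 19.5 to 26.8%) and L(3)mbt for 156 (30.6%, 26.7 to 34.7%), against 36.4% for each over all BTB peaks. By arm the BTB-only share was 49.4%, 49.1%, 57.9%, 52.4% and 45.5% from 2L to X, above the share over all BTB peaks of the same arm in each case. For the weaker BTB-only peaks it was 46.3% (43.9 to 48.7%), an interval that overlapped that of the strong ones. For the strong peaks with 2.2 it was 26.2% (23.0 to 29.7%) and for those with L(3)mbt 33.7% (29.6 to 37.9%). In a setting added after the data were seen, neighbours with centres under 2 kb apart were passed over. The share of the strong BTB-only sites was then 46.3% (42.0 to 50.6%). It was 42.8% for the weaker BTB-only peaks (40.4 to 45.1%), an interval that overlapped. For the strong peaks with 2.2 it was 29.0% (25.6 to 32.5%) and for those with L(3)mbt 35.5% (31.4 to 39.8%). On X the share of the strong BTB-only sites was then 34.1%, below the 35.2% over all BTB peaks of X, and it stayed above on the other 4 arms.

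**Figure D5:**
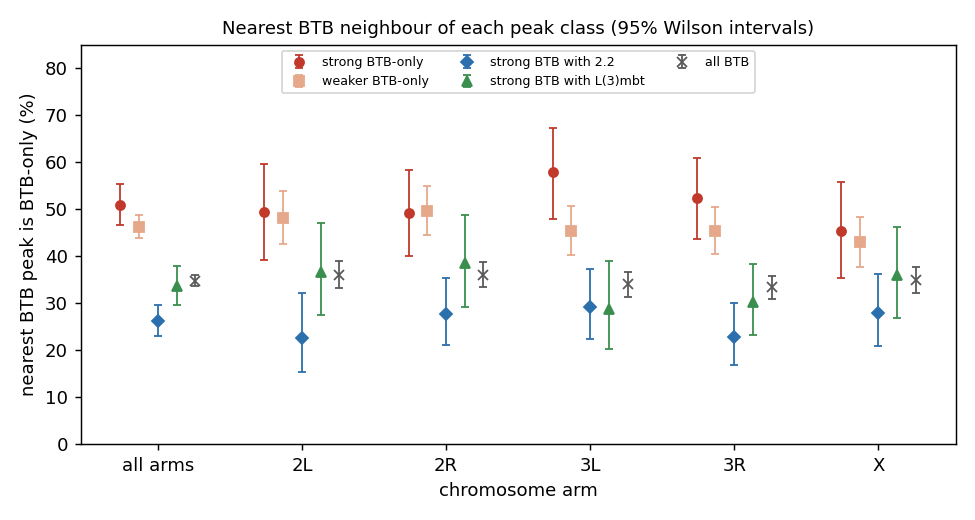
Share of peaks whose nearest BTB peak is BTB-only at any score (y axis, percent, with 95% Wilson intervals) over all arms and on each arm (x axis), for the 4 classes and for all BTB peaks. The strong BTB-only sites stand at 51.0% and all BTB peaks at 34.7%.

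Strong BTB-only sites were also next to each other at times. The nearest BTB peak was another strong BTB-only site for 73 of the 510 (14.3%, 11.5 to 17.6%), against 8.17% of all BTB peaks. It was one for 10.8% of the weaker BTB-only peaks (9.36 to 12.3%) and 9.07% of the strong peaks with L(3)mbt (6.85 to 11.9%), intervals that overlapped that of the sites. For the strong peaks with 2.2 the share was 5.58% (4.08 to 7.60%). By arm the share of the strong BTB-only sites was 11.2%, 14.3%, 9.47%, 19.0% and 15.9% from 2L to X. The interval over all arms lay above the 8.17%, but each arm counts only 9 to 24 such sites. Where 2 sites are each other's nearest BTB peak both are counted, so the sites are not independent and the interval may be too narrow. Other strong BTB-only sites stood at 13.7 per Mb at 2 to 5 kb from a site and 7.47 at 10 to 20 kb, against their mean of 4.30, and at 4.13 at 50 to 100 kb. At 2 to 5 kb this was 3.75, 23.9, 10.5, 10.6 and 18.9 per Mb from 2L to X, so 2L showed no excess over its own mean of 3.90. At 5 to 10 kb 2L (2.25) and 3L (2.11) were both below their own means, and at 10 to 20 kb 2L was (2.25). Over all arms 42 centres were counted at 2 to 5 kb, 40 at 5 to 10 kb and 76 at 10 to 20 kb. Each pair of sites was counted from both of its sites. The value of a single arm thus rests on few pairs, and differences between arms were not tested. The median centre distance to the nearest other site was 71370 bp (61973 to 84048 bp). It was 35755 bp when sites were chosen by centres over 200 bp apart and 42331 bp with peaks set to 400 bp, with 909 and 720 sites. By the 1 bp rule 86 sites had one within 10 kb (16.9%, 13.9 to 20.4%). For the strong peaks with L(3)mbt, a class of like size, the share within 10 kb was 17.1% (14.1 to 20.7%), and for the larger class with 2.2 it was 26.8% (23.6 to 30.3%).

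Strong BTB-only sites made up only 8.30% of the BTB peaks on the long arms. At so low a share most sites would have no other beside them even if placed without regard to each other. The counts that follow are thus descriptions. Read along the arms, 400 of the 510 had no other strong BTB-only site as the next BTB peak on either side, 80 stood in 40 pairs, 18 in 6 runs of 3 and 12 in 3 runs of 4. Counted with the weaker ones, BTB-only peaks made up 35.9% of the BTB peaks. Longer runs follow from this larger share, and the lack of 2.2 and L(3)mbt within them follows from the choice. Of the strong sites 158 stood alone (31.0%, 27.1 to 35.1%), and 241 were in runs of 3 or more (47.3%, 43.0 to 51.6%). The shares of the weaker ones were 33.3% (31.1 to 35.6%) and 42.5% (40.2 to 44.9%), with intervals that overlapped. The longest runs held 14 peaks each, one on 2R from 15616198 to 15653898 with 1 strong site and one on X from 13882633 to 13998047 with none. They were followed by a run of 11 on X from 14063850 to 14120633 that held 5.

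The densest groups of strong BTB-only sites within 50 kb held 5 each. On X, 5 sites lay within 14.1 kb at 14102382 to 14116468, among 8 BTB peaks with no 2.2 and no L(3)mbt peak. Also on X, 5 sites lay within 44.7 kb at 2006039 to 2050780, among 10 BTB peaks, no 2.2 peak and 3 L(3)mbt peaks. On 2R, 5 sites lay within 20.9 kb at 6308375 to 6329253, among 7 BTB peaks, 1 of 2.2 and 1 of L(3)mbt. The closest pairs of sites were at X 14115158 to 14115937 and 14115972 to 14116468, with 34 bp between them, at 3L 16978513 to 16979345 and 16979354 to 16980001, with 8 bp, and at 3R 3188910 to 3189556 and 3189656 to 3190490, with 99 bp. Whether such a pair is 1 bound region called as 2 peaks was not tested. Of the 505 pairs of sites that follow each other on an arm, 12 had centres under 2 kb apart and 47 under 10 kb.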

How the data were processed

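Peaks of Kc167 cells came from 3 lists, 1 library per antibody. The submitters' processing notes name Bowtie 0.12.5, and the authors deposited start, end and score of each peak. The score is the deposited value of the peak caller, whose settings no source used here gives; the peak names have the form MACS writes. Starts count from 0 in the files and from 1 here. The sequence names are those of release 5 of the fly assembly and the gene table at hand is of release 6, so no gene or motif was assigned, and the planned sequence features were not run.

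A peak was shared with 1 bp of overlap. Gaps run between edges, neighbour and flank distances between centres. Shares have Wilson intervals and medians order-statistic intervals, at 95%. With 1 library per antibody no test was made. Named peaks follow a rule: the first 5 scoring over 3100, the 3 widest, narrowest, most isolated and nearest to each other list, the 3 closest pairs, the 3 fullest stretches of 50 kb, and 5 just below the threshold. The share of sites whose nearest BTB peak is BTB-only at any score and the counts in flanks, runs and 1 Mb windows were added after the data were seen. The sites and classes were chosen with earlier results of these data known. On a simulated list, 500 of 500 planted overlaps were found. On simulated independent values, 945 of 1000 Wilson and 961 of 1000 median intervals held the set value. Peaks along an arm need not be independent, and how the intervals hold for them was not tested. Computation used Python 3.11.15, numpy 2.4.6, pandas 2.3.3, scipy 1.17.1 and matplotlib 3.10.9.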

Additional observations from a re-analysis of the deposited data

How the results depend on the processing

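The choice of sites depended most on what counts as an overlap. When only peaks with centres within 200 bp counted as shared, there were 909 sites (7.66 per Mb). Their median width was 934 bp, their median gap 17003 bp to 2.2 and 6612 bp to L(3)mbt, and their distance to the next site 35755 bp. With that setting 26.7% had neither protein within 10 kb, 66.7% had a BTB-only neighbour and 20.4% a strong one. With peaks set to 400 bp these last 6 values were 21229 bp, 9184 bp, 42331 bp, 33.75%, 59.0% and 18.2%, and when 2.2 and L(3)mbt peaks scoring under 200 were passed over they were 29519 bp, 22541 bp, 47991 bp, 56.2%, 62.4% and 18.6%. Sites at least 1000 bp from both proteins had a median gap of 18275 bp to L(3)mbt, and 53.3% had neither within 10 kb. With neighbours under 2 kb apart passed over, 46.3% had a BTB-only neighbour. The other 55 of 79 values moved by less than their interval or, for counts, by less than 1.5 times, including the share on X and next to the centromere under each setting. No paired analysis was possible because each antibody has 1 library, and no library could be left out. Depth is unknown, so a missing 2.2 or L(3)mbt peak is only one below the caller's limit.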
